A study of Homo sapiens with 16 samples.

Results

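The regions described here are DNMT3B and OCT1 peaks in DNA that the chromatin map of HMEC, normal human mammary epithelial cells, places in heterochromatin. A peak was a member when the first chromatin state listed for it was state 13 of the Broad ChromHMM track, the state of heterochromatin and low signal. Members lay on chromosomes 1 to 22. Peaks that start in 4 crowded windows were left out, namely 3 Mb of chromosome 8 that end at 130 Mb, 4 to 6 Mb of chromosome 9, 72 to 75 Mb of chromosome 10 and 17 to 19 Mb of chromosome 17. Of 118439 distinct peaks in the 4 deposited lists, 47549 were members. The map was made in HMEC and no histone mark was analysed here, so whether these regions carry heterochromatin in the cells of the study was not tested.

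The cells were MCF10CA1a, a highly invasive human breast cancer line of the MCF10A series. They were treated with pterostilbene (PTS), a stilbenoid polyphenol, at 7 µM for 9 days, and the control cells received the vehicle, ethanol. Chromatin immunoprecipitation (ChIP) with an antibody against DNMT3B or OCT1 was followed by sequencing, with 3 biological replicates and 1 input library for each antibody and treatment. The 4 lists, vehicle and PTS for each antibody, pool their 3 replicates, so a region has 1 value per antibody and treatment, with no replicate error and no test. The sample descriptions call the vehicle lists enriched in control cells and the PTS lists enriched with PTS. Many regions stand in both lists of an antibody with close pileups, so each list was read here as the peaks of its treatment. Whether a comparison of the treatments shaped the lists was not tested. The value used is the pileup, the number of sequenced fragments that overlap at the summit of a peak, which for PTS is scaled to the depth of the vehicle list. The background value implies pooled depths of 43200000 reads for DNMT3B under vehicle, 47300000 for DNMT3B under PTS, 47200000 for OCT1 under vehicle and 47700000 for OCT1 under PTS. A single background value held for each whole list, 3.20 for DNMT3B and 3.50 for OCT1. The local level of input DNA thus did not enter a peak's height or fold, although the paper names pooled inputs as the background control.

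DNMT3B is a DNA methyltransferase that sets methyl groups on cytosines, and it is best known for methylating the satellite repeats next to centromeres. OCT1, the product of POU2F1, is a transcription factor of the POU family that binds the octamer ATGCAAAT. Heterochromatin is compact, mostly transcriptionally silent and late-replicating DNA. It holds satellite arrays, whose short units are repeated head to tail many times, and long gene-poor stretches with genes of other tissues. Microsatellites are runs of a unit of a few bases, such as AC.

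The sequences under the tallest members are shown first, because several of the classes of repeats described below are seen in them. All sequences are 120 bases of GRCh37/hg19, plus strand, at or next to the summit, named by the gene that the deposited list assigns. For EMBP1, LOC101927237 and LINC00854 the class rests on more sequence than these bases, and no repeat is seen in them. The first set holds the tallest members of the 4 lists, and capitals mark the unit GGAAT in the member assigned to MIR4436A and the unit AGCC (GGCT on this strand) in the member assigned to LOC654342. They lie at chr1:121478595-121478714 (EMBP1), chr4:68264753-68264872 (LOC101927237), chr2:89879096-89879215 (MIR4436A), chr17:41400820-41400939 (LINC00854), chr2:90482131-90482250 (LOC654342) and chr4:190156247-190156366 (LINC01262).
EMBP1: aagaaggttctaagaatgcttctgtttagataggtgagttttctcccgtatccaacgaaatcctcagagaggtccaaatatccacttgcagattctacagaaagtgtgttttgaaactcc
LOC101927237: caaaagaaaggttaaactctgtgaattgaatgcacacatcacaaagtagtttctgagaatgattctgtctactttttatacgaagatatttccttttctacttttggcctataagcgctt
MIR4436A: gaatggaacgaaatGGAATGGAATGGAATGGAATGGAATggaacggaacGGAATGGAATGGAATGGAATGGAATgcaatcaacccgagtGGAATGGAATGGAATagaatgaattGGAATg
LINC00854: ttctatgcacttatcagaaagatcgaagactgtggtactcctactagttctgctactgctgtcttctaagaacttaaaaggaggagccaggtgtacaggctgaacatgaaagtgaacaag
LOC654342: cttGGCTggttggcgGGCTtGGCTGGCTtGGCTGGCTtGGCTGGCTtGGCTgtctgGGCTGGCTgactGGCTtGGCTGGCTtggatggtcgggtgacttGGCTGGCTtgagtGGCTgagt
LINC01262: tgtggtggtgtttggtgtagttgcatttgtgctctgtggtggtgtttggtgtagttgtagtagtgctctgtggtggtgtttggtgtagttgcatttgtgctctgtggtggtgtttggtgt

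The second set holds members at which DNMT3B was much higher than OCT1, and capitals mark runs of AC (or GT) in the first pair and of AG (or CT) in the last. They lie at chr9:122259683-122259802 (BRINP1), chr4:44458504-44458623 (KCTD8) and chr22:34792579-34792698 (ISX-AS1).
BRINP1: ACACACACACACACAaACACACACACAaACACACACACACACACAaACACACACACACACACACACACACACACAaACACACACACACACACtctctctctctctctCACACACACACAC
KCTD8: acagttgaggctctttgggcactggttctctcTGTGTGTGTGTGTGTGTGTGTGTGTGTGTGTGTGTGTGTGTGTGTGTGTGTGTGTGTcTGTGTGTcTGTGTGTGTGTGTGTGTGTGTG
ISX-AS1: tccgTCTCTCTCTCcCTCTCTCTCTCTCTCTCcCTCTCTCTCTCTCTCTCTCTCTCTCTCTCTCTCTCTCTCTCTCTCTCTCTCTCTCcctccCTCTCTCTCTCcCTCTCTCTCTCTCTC

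The third set holds the member with the lowest DNMT3B ratio of PTS over vehicle, which was within counting error, and the tallest member found with PTS alone, which has near-identical copies elsewhere, with no capitals because no unit was marked. They lie at chr10:134925288-134925407 (ADGRA1, an intron) and chr5:17519760-17519879 (LOC102723526, between genes).
ADGRA1: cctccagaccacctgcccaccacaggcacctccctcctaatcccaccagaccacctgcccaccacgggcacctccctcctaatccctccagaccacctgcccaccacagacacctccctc
LOC102723526: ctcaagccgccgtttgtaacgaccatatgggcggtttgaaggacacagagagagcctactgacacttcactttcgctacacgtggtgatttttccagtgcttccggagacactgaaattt

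The heterochromatin state held a large share of each list, and most of its peaks were low. Members were 5389 of 12305 autosomal peaks outside the windows for DNMT3B with vehicle, a share of 43.8%. With PTS they were 696 of 2697, or 25.8%. OCT1 had 35931 members of 76269 with vehicle (47.1%) and 5533 of 12227 with PTS (45.3%). Between 95.3% and 97.4% of the members of a list had no other state listed. Another 263 to 1775 peaks per list had state 13 but lay in the windows left out. Median pileups of members were 15 for DNMT3B with vehicle, 17.4 with PTS, 15 for OCT1 with vehicle and 16.8 with PTS. Their median lengths were 238 to 250 bp, close to the fragment size of 200 bp. The highest members reached 108 (DNMT3B, vehicle), 103 (DNMT3B, PTS), 119 (OCT1, vehicle) and 123 (OCT1, PTS), whereas peaks in other states reached 364 to 400.

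The treatments differed most in the number of low members, and at the greatest heights their counts were nearly equal. Because the lists start at different levels, 11 for vehicle and 12.8 to 12.9 for PTS, treatments were compared only at a pileup of 13 or more. At that level DNMT3B had 5155 members with vehicle and 694 with PTS, 7.43 times as many with vehicle. Peaks in other states numbered 6668 and 1999, a ratio of 3.34. For OCT1 the members were 34649 and 5525 (6.27 times) and the other peaks 39067 and 6687 (5.84 times). At a pileup of 25 or more the counts drew together, 92 members against 73 for DNMT3B and 143 against 73 for OCT1. At 40 or more they were 34 against 32 for DNMT3B and 28 against 28 for OCT1. Between 13 and 15 alone, DNMT3B had 1927 members with vehicle and 79 with PTS. Whether the calling of low peaks differed between the lists was not tested.

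**Figure D1:**
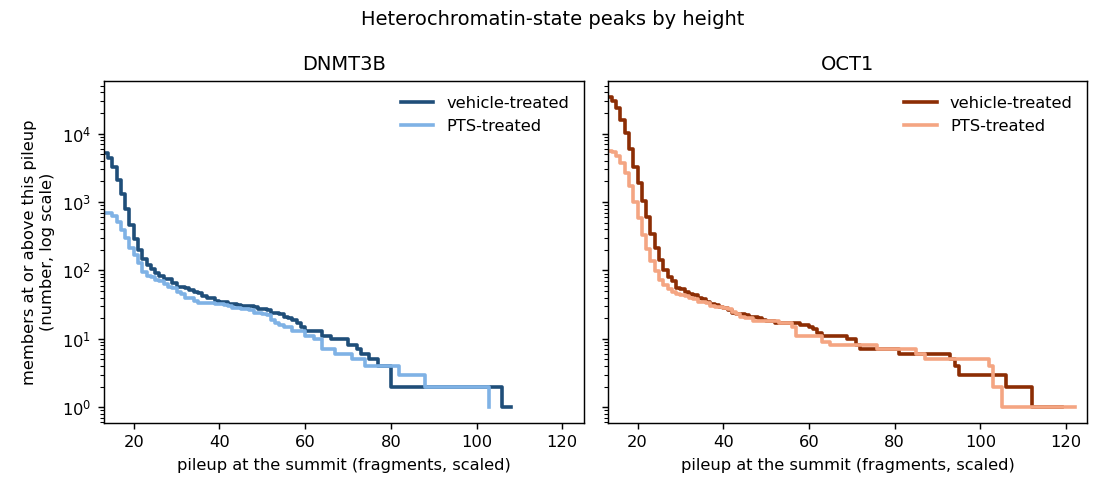
Number of heterochromatin-state peaks (members, log scale) at or above each pileup, for DNMT3B (left) and OCT1 (right), with vehicle (dark) and PTS (light). At a pileup of 13 the curves lie 7.43 and 6.27 times apart, and at 40 they hold 34 and 32 (DNMT3B) and 28 and 28 (OCT1) members.

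Whether a member recurred, that is shared at least 1 base with a peak at 13 or more of the other treatment, depended on its height. Of the 5155 DNMT3B members with vehicle, 265 recurred with PTS (5.14%, 95% Wilson interval 4.57 to 5.78), beside 12.9% of all peaks of that list and 18.8% of those in other states. In the PTS list 261 of 694 DNMT3B members recurred (37.6%, 34.1 to 41.3), beside 60.5% of all peaks. OCT1 members recurred in 6.35% with vehicle (2200 of 34649), beside 7.79% of all peaks. With PTS 39.6% of OCT1 members recurred (2190 of 5525), beside 47.9%. In all 4 lists the share was thus lower among members than among all peaks. The vehicle lists hold far more peaks than the PTS lists, which limits the vehicle shares in advance. Shares are therefore not compared between treatments. All intervals cover counting error only.

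Within each list the share climbed steeply with pileup. Among DNMT3B members with vehicle it was 1.97% from 13 to 15, 3.61% from 15 to 20, 18.6% from 20 to 25 and 86.2% from 25 to 40 (50 of 58). With PTS the same steps were 17.7%, 26.1%, 62.8% and 95.1%. Every member at 40 or more recurred, 34 of 34 and 32 of 32 for DNMT3B and 28 of 28 in each OCT1 list. Part of this climb is fixed in advance, because the partner also had to reach 13, which it more easily misses where the peak itself is low. Heterochromatin-state members and other peaks differed more in the middle of the range than at its ends. From 20 to 25, 18.6% of DNMT3B members with vehicle recurred and 50.6% of the other peaks did, and from 25 to 40, 60.9% of OCT1 members with vehicle (70 of 115) and 86.9% of the others.

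**Figure D2:**
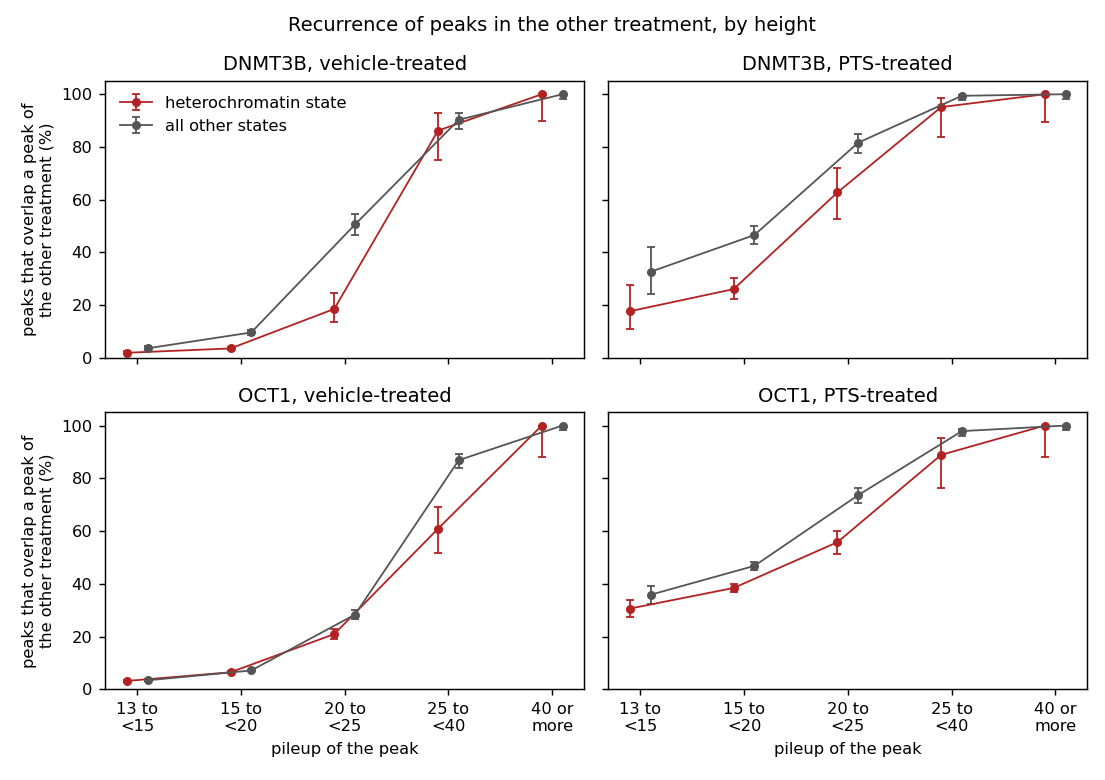
Share of peaks (%) that overlap a peak of the other treatment at a pileup of 13 or more, in 5 classes of pileup, for heterochromatin-state peaks (red) and all other states (grey) of each list, with 95% Wilson intervals for counting error. In every list the share rises with height and reaches 100% at 40 or more.

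Where a heterochromatin region had a peak in both treatments, its pileups were close. DNMT3B had 262 such regions, with a median ratio of PTS over vehicle of 1.02 (quartiles 0.913 and 1.14). OCT1 had 2142, with a median of 1.05 (quartiles 0.931 and 1.18). A ratio past 1.5-fold was found at 1 DNMT3B region higher with PTS, beside 1.73% of all DNMT3B regions, and at 2 lower, beside 1.53%. For OCT1, 42 regions were past it with higher PTS (1.96%), beside 2.19% of all regions, and 28 with lower PTS (1.31%), beside 1.75%. The exact binomial interval of the ratio left out 1 at no DNMT3B region and at 1 OCT1 region, which lies near WDR97 on chromosome 8. There the pileup was 42 with vehicle and 23.8 with PTS, a ratio of 0.565 (95% interval 0.328 to 0.956). The intervals were not adjusted for the number of regions compared. Heterochromatin regions are mostly low, and large ratios were rarer among low regions. This rarity is largely fixed in advance, because a ratio was taken only where both pileups reached the minimum for comparing treatments. A region with both pileups under 20 could therefore hardly pass 1.5-fold. The closeness of the pileups at low regions is in part set by the same minimum. Within classes of the higher pileup, the OCT1 shares among heterochromatin regions were at or above those of all regions. From 20 to 25 they were 4.77% and 4.61% for higher PTS and 2.75% and 2.56% for lower PTS. From 25 to 40 they were 5.88% and 4.92% for higher PTS, and 11.8% (10 of 85) and 7.75% for lower PTS. The DNMT3B shares were mostly at or below those of all regions. From 20 to 25 they were 1.69% (1 of 59) and 4.01% for higher PTS. From 25 to 40 they were 0% and 2.31% for higher PTS, and 3.85% (2 of 52) and 3.70% for lower PTS.

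At the DNMT3B regions with the lowest ratios, ADGRA1, an adhesion G protein-coupled receptor gene, had a pileup of 35 with vehicle and 20.1 with PTS in an intron. This ratio of 0.574 had an interval of 0.321 to 1.01, and the sequence, shown above, repeats a period of 42 bases. OCT1 at the same place had 37 and 30.7. An AC repeat in an intron of ZNF407, a zinc finger gene, had DNMT3B pileups of 32 and 21, a ratio of 0.656. Of the other lowest, RNVU1-18, a U1 small nuclear RNA gene, had a ratio of 0.685 and KANK1, a regulator of the actin cytoskeleton, 0.705. Another region assigned to RNVU1-18 had 16 with vehicle and 23.7 with PTS, so regions assigned to this gene lay on both sides of a ratio of 1. The highest DNMT3B ratio was 1.55, at a region assigned to GAP43, a growth protein of axons, with 13 and 20.1. DMRT2 (1.47) and SMARCA2 (1.46), the gene of a SWI/SNF chromatin remodelling ATPase, followed. All these intervals included 1.

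For OCT1, NBEAP1, a pseudogene of neurobeachin, had 26 with vehicle and 14.8 with PTS. CNTLN, a centrosomal protein gene, had 25 and 14.8, and DMRT1, a transcription factor gene of testis development, 24 and 14.8. Among the high OCT1 ratios were 1.75 at SMARCA2, 1.75 at MIR4771-1, a site with a near-identical copy elsewhere, and 1.70 at SLC24A2, a sodium, calcium and potassium exchanger gene. Apart from the region near WDR97, no interval left out 1, and at these depths such differences are within counting error.

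**Figure D3:**
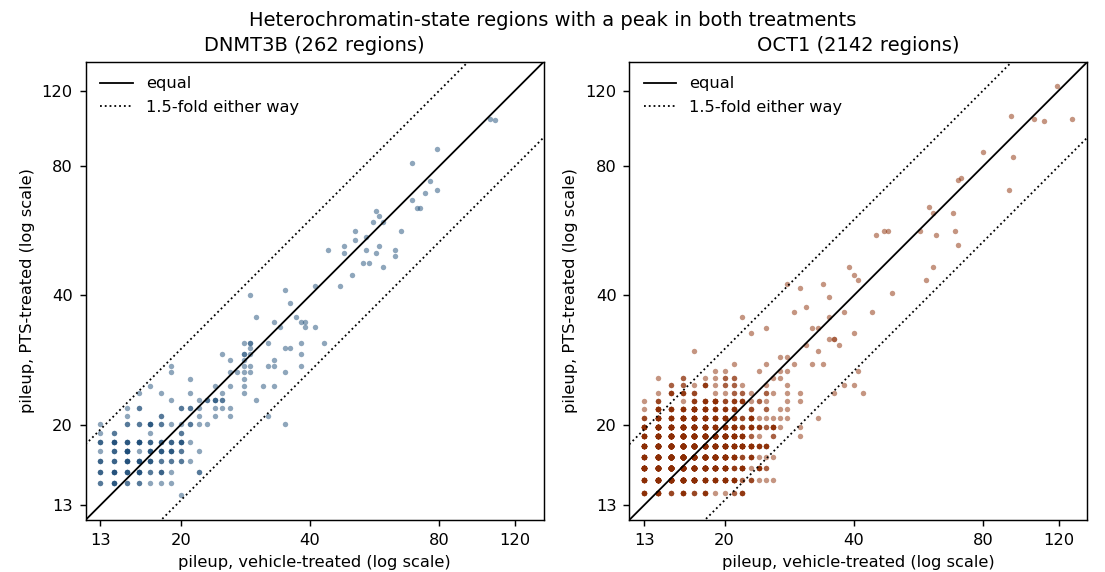
Pileup with PTS against pileup with vehicle (both on log scales) at each heterochromatin region with a peak in both treatments, for DNMT3B (262 regions) and OCT1 (2142 regions). The solid line marks equal pileups and the dotted lines 1.5-fold, which 3 DNMT3B regions and 70 OCT1 regions passed, and points in rows at the left come from whole fragment counts.

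Members with no peak of any height in the other treatment were numerous but low. They numbered 4890 for DNMT3B with vehicle (94.9% of members at 13 or more), 431 with PTS (62.1%), 32449 for OCT1 with vehicle (93.7%) and 3303 with PTS (59.8%). Among all peaks at 13 or more, 12.9%, 60.5%, 7.79% and 47.9% had a partner at 13 or more. A missing partner was thus common among all peaks. Only 8, 2, 45 and 5 of these members reached 25. The highest for DNMT3B with vehicle was an AC repeat assigned to ROCK1P1, a pseudogene on chromosome 18, at 34. Next came NPIPA5 and NPIPA8, of a family in duplicated DNA, both at 32, and an AC repeat in an intron of NBAS, a gene of vesicle transport, at 26. The NPIPA8 site has a near-identical copy elsewhere, so its reads could be placed at another site. A site assigned to NPIPA7, of the same family, had DNMT3B pileups of 34 with vehicle and 33.8 with PTS. With PTS the highest was at LOC102723526 in both lists, 29.2 for DNMT3B and 28.7 for OCT1. This sequence has near-identical copies elsewhere, so reads could be placed at several sites, and a neighbouring region of the same gene at chr5:17526420-17527010 had peaks in all 4 lists (28 and 23.7 for DNMT3B, 41 and 43.5 for OCT1). The next DNMT3B members with PTS were an AC repeat in an intron of FOXP1, a transcription factor gene, at 25.6, and sites assigned to UST and NFIB at 22.8 each. For OCT1, LOC101929583 (31), DMRT3 (30) and PTPRN2 (29) led with vehicle, and IL33 (27.7), SLC24A2 (27.7) and GLDC (26.7), all on the short arm of chromosome 9, followed with PTS.

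Low members were crowded on a few chromosomes, and the tall ones were spread differently. Chromosome 9 held 42.5% of DNMT3B members with vehicle and 45.7% with PTS, on 4.48% of the autosomal sequence. For OCT1 it held 24.1% with vehicle and 38.9% with PTS. Chromosomes 5, 3 and 1 followed, with 16.7%, 12.5% and 11.6% of DNMT3B members with vehicle. Peaks in other states of that list were crowded too, with 21.7% on chromosome 9, 16.2% on chromosome 5, 9.15% on chromosome 3 and 20.1% on chromosome 1. Members thus exceeded other peaks on chromosomes 9 and 3, were close to them on chromosome 5 and fell short of them on chromosome 1. By contrast chromosome 2, with 8.87% of the sequence, held 1.96% of these members but 23 of the 92 at 25 or more.

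**Figure D4:**
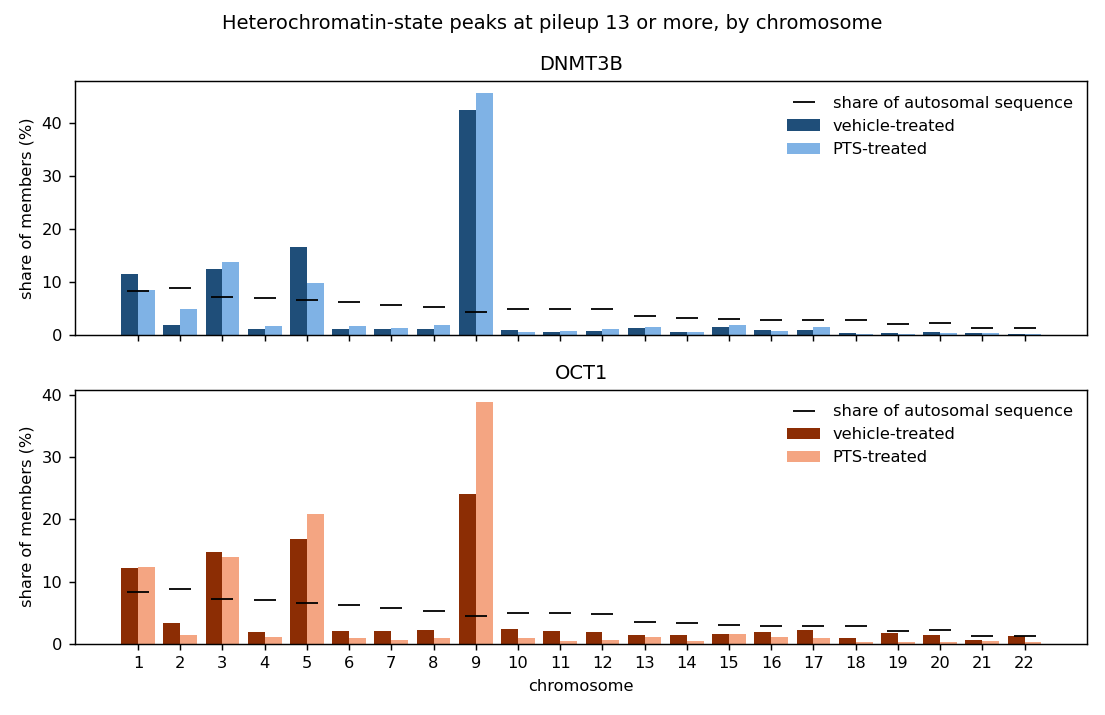
Share (%) of heterochromatin-state peaks at a pileup of 13 or more on each autosome, for DNMT3B (top) and OCT1 (bottom), with vehicle (dark bars) and PTS (light bars). Black ticks give each chromosome's share of the autosomal sequence, and chromosome 9, at 4.48% of the sequence, holds 24.1% to 45.7% of the members.

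The crowding is described here by 4 stretches. On each chromosome the run of 1-Mb bins with the largest excess of DNMT3B members with vehicle over 3 per Mb was taken, and runs with at least 100 members were kept, a rule made after the values were seen. They were 0 to 39 Mb of chromosome 9, 146 to 195 Mb of chromosome 1, 57 to 129 Mb of chromosome 3 and 118 to 181 Mb of chromosome 5. Together they held 72.7% of DNMT3B members with vehicle, from which they were chosen, 68.7% with PTS, 45.4% of OCT1 members with vehicle and 72.3% with PTS. Of peaks in other states they held 47.1%, 25.8%, 34.3% and 51.2%, so these were crowded there too. The chromosome 1 stretch held 10.6%, 7.35%, 9.23% and 11.4% of members, beside 11.7%, 5.95%, 9.25% and 13.5% of other peaks. The chromosome 9 stretch alone held 37.2%, 41.6%, 13% and 31.7%. Peaks in other states were less crowded there, with 14.9%, 9.70%, 6.76% and 14.8%. Few tall members lay in the 4 stretches, namely 5 of 92, 4 of 73, 46 of 143 and 13 of 73 at 25 or more. Of the OCT1 members with vehicle that were that tall, 31 lay in the chromosome 9 stretch, none above 30. DNMT3B recurrence was 3.15% in the stretches and 10.4% elsewhere with vehicle, and 24.1% and 67.3% with PTS. For OCT1 the order was the other way, 11.1% and 2.39% with vehicle and 43.3% and 30.0% with PTS. DNA copy number and the level of input reads in these stretches were not tested.

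The fullest bin of 1 Mb in all 4 lists was 16 to 17 Mb of chromosome 9, with 184 members for DNMT3B with vehicle, 41 with PTS, 366 for OCT1 with vehicle and 177 with PTS. It holds BNC2, which encodes the zinc finger protein basonuclin 2, and C9orf92. Over whole genes, PTPRD, a receptor tyrosine phosphatase of synapses, had 112, 6, 234 and 49 members in that order of lists, and no DNMT3B member there recurred. BNC2 had 93, 17, 214 and 84, and ADAMTSL1, a secreted protein related to the ADAMTS proteases, 94, 13, 177 and 81. On chromosome 3, GAP43 had 75, 28, 102 and 67, of which 15, 14, 44 and 44 recurred. Other genes with many members on chromosome 9 were SMARCA2 (70, 5, 162 and 68), MLLT3, a reader of histone acylation (69, 14, 120 and 60), KDM4C, an H3K9 demethylase (61, 9, 159 and 61), and DOCK8, an exchange factor of immune cells (58, 13, 122 and 59). On chromosome 5, FSTL4, a follistatin-like gene, had 15, 0, 144 and 32. Their highest pileups lay between 17 and 28.

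Members lay outside exons more often than other peaks. The other states include promoters and transcribed regions, so part of this difference is set by the state used to pick members. Introns held 54.6% of DNMT3B members with vehicle, exons 5.39% and intergenic DNA 40%, beside 11.7% in exons for other peaks. For OCT1 with vehicle, 7.29% of members and 17.5% of others were exonic. Protein-coding genes held 40.1% of DNMT3B members and 43.4% of OCT1 members with vehicle, beside 56.0% and 68.6% of other peaks. With PTS they held 41.1% of OCT1 members and 55.4% of others, but for DNMT3B the shares were equal at 35.7%, and 41.6% of members and 47.5% of others were intergenic. With PTS the shares in exons were 5.33% for DNMT3B and 6.62% for OCT1, beside 8.55% and 12.9%. The tall members, at 25 or more, were mostly intergenic in all 4 lists (54.5% to 65.2%).

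The gene lists described next were written for gene families known from heterochromatin or from other tissues. A gene counted when it had a member, among the genes of its list assigned any peak at 13 or more. Over all genes this share was 50.4% for DNMT3B with vehicle, 40.5% with PTS, 59.2% for OCT1 with vehicle and 56.8% with PTS. Neural adhesion genes, long genes of synapses and cell contacts, had a member in 24 of 28, 5 of 11, 72 of 86 and 21 of 25. Ion channel and neurotransmitter receptor genes had a member in 39 of 52, 10 of 15, 141 of 174 and 31 of 41. Both lists stood above the share of all genes in each list of peaks. Part of this is fixed in advance, because members are picked by the low-signal state and the genes were chosen as genes of other tissues. A long gene with many peaks also has more places for a member, and peaks per gene were not taken into account. PTPRD alone held 112 of the 203 members of neural adhesion genes for DNMT3B with vehicle. Their tallest DNMT3B members were AC repeats in introns. KCND2, a potassium channel gene, had 38 with vehicle and 27.4 with PTS. CACNA2D1, a calcium channel subunit gene, had 32 and 31.1. CSMD1 had 32 and 27.4, and NRG2, a neuregulin gene, 29 and 31.1. All 4 recurred.

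Among odorant receptor genes, which are silent outside the nose, 10 of 15, 1 of 3, 61 of 71 and 17 of 20 had a member, and none of their members reached 25. Zinc finger genes had 23 of 54, 4 of 11, 136 of 265 and 15 of 32, under the share of all genes in each list. In this list ZNF664-RFLNA had 28 with vehicle and 27.4 with PTS for DNMT3B at an AC repeat. Segmentally duplicated families had 7 of 36, 2 of 19, 37 of 68 and 6 of 30, also under it. A region assigned to NBPF9, of a primate gene family with many copies, had 30 and 35.6 for DNMT3B and 42 and 41.6 for OCT1, all peaks of the region included. Long noncoding or uncharacterised genes had 297 of 446, 76 of 137, 1350 of 1789 and 275 of 400. The list of immune receptor loci had 6 of 10, 0 of 1, 27 of 39 and 5 of 7, but its name pattern also took in TRANK1, TRAF1, TRAF2 and TRA2B, which are no receptor genes. These counts are descriptions, and genes that share a stretch of a chromosome are not independent.

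Members were richer in G and C than their surroundings and poorer in the octamer. Median GC was 48.4%, 48%, 52.7% and 50.4% in the 4 lists (DNMT3B with vehicle and PTS, OCT1 with vehicle and PTS), beside 41.0%, 41.0%, 44.1% and 42.9% in sequences of equal length 5 kb to each side. The octamer ATGCAAAT, searched on both strands, was in 1.14%, 0.865%, 0.892% and 1.01% of members. In the flanks it was in 2.84%, 2.61%, 2.70% and 2.80%, and in peaks of other states in 1.71%, 1.80%, 0.827% and 1.36%. OCT1 members thus held the OCT1 motif less often than DNMT3B members did with vehicle. With PTS they held it slightly more often, where the DNMT3B share rests on 6 members. In both treatments OCT1 members held it less often than their flanks. The octamer is mostly A and T, and whether base composition accounts for the difference from the flanks was not tested. A tandem repeat of a unit of 1 to 6 bases, at least 24 bases long, was in 4.68%, 13.4%, 1.22% and 1.61% of members, beside 2.39%, 3.69%, 2.61% and 2.59% of flanks. Near-identical copies elsewhere, of at least 90% identity over 80% of the length, were found for 4.21%, 8.07%, 2.86% and 4.09% of members. They were found for 14.9%, 31.5%, 4.44% and 14.3% of peaks in other states.

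Height and sequence went together. Each member was put into a class by its sequence alone, though the limits of the classes were set after values were seen. The classes were satellite-type DNA with at least 4 copies of GGAAT (both strands) per 100 bases, AC repeats, AG repeats, runs of another unit of 1 to 6 bases, a longer period of 7 to 400 bases, a near-identical copy elsewhere, and none of these. Of 5155 DNMT3B members with vehicle, 4668 (90.6%) were in none of the classes, 165 were AC repeats, 44 had a longer period and 22 were of the GGAAT type. Among the 92 at 25 or more, 7 were in none, 41 were AC repeats (44.6%), 17 of the GGAAT type (18.5%) and 12 of a longer period (13%). In the 592 peaks of other states that were as tall, the shares were 6.93% for AC repeats, 18.6% for the GGAAT type and 28.2% for a longer period, so the GGAAT share was close to that of other tall peaks. With PTS, the 73 at 25 or more held 29 AC repeats, 18 of the GGAAT type and 4 in none. The tall OCT1 members were less repetitive. With vehicle, 63 of 143 were in none, 25 had a longer period, 17 were of the GGAAT type and 10 were AC repeats, and with PTS 20, 18, 16 and 8 of 73. For comparison, flanks of DNMT3B members with vehicle were AC repeats in 0.602% and of the GGAAT type in 0.233%, and all members of that list in 3.20% and 0.427%.

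Recurrence differed between the classes too. In the 4 lists 86.4%, 90.9%, 95.2% and 95.2% of GGAAT-type members recurred in the other treatment. For AC repeats it was 33.9%, 88.9%, 22.5% and 72%, for longer periods 43.2%, 90.0%, 16.3% and 76.4%, and for members in none of the classes 2.96%, 24.9%, 5.98% and 38.0%. Median pileups of DNMT3B members with vehicle were 46 for the GGAAT type, 20 for AC repeats and 15 for none. Class and height were not separated here, since the classes with high recurrence were also the tall ones.

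DNMT3B and OCT1 peaks coincided at part of the members. An OCT1 peak at 13 or more of the same treatment was shared by 33.4% of DNMT3B members with vehicle (1722 of 5155), beside 41.8% of all DNMT3B peaks, and by 32.4% with PTS (225 of 694), beside 56.4%. A DNMT3B peak was shared by 4.98% of OCT1 members with vehicle (1725 of 34649), beside 6.68% of all OCT1 peaks, and by 4.20% with PTS (232 of 5525), beside 12.2%. The share rose with height here too, which the minimum of 13 for the partner also fixes in part. Among DNMT3B members with vehicle it was 28.7% from 13 to 15, 53.4% from 25 to 40 and 97.1% at 40 or more (33 of 34). Between 25 and 40, 90.1% of other DNMT3B peaks had an OCT1 peak, well above the share of members.

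The ratio of the antibodies differed between sequence classes among the tall regions, which is in part fixed by how they were chosen. For this comparison the 208 regions with a member at 25 or more in any list were used, and a ratio was taken where both antibodies had a peak at 13 or more. DNMT3B was higher at 19 of 20 AC repeats with vehicle, with a median ratio of DNMT3B over OCT1 of 1.48, and 23 further AC repeats had a DNMT3B peak alone, against 1 with OCT1 alone. With PTS it was higher at 12 of 13 (median 1.33), with 25 DNMT3B peaks alone and 1 OCT1 peak alone. GGAAT-type regions had both antibodies at 16 of 16, with medians of 1.10 in both treatments. Longer periods had medians of 0.700 with vehicle and 0.760 with PTS, and regions in none of the classes 0.669 and 0.877. AC repeats entered mainly through DNMT3B, with 41 DNMT3B members and 10 OCT1 members at 25 or more with vehicle, and regions in none of the classes mainly through OCT1, with 7 and 63. The class medians are therefore a description, and nothing is read from their order. The antibodies also have their own depth and background.

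Among the AC repeats, the site assigned to BRINP1, a gene of the nervous system, had DNMT3B pileups of 63 with vehicle and 51.1 with PTS, and OCT1 pileups of 28 and 28.7. KCTD8, which encodes a subunit of GABA-B receptors, had 59 and 59.4 for DNMT3B and 32 and 33.7 for OCT1. In an intron of SHANK2, a scaffold gene of synapses, the values were 59 and 46.6 against 26 and 25.7. CNIH3, a gene of AMPA receptor assembly, had 58 and 52.1 for DNMT3B and, for OCT1, 19 with vehicle and no peak with PTS. Both tall AG repeats showed the same order. ISX-AS1 had 57 and 50.2 for DNMT3B and 18 for OCT1 with vehicle only, and DNAH14, an axonemal dynein gene, had 51 and 56.6 against 21 and 25.7. Several tall AC repeats had no OCT1 peak at 13 or more in either treatment, as in FYB, an adaptor gene of T cells (38 and 31.1 for DNMT3B). The AC repeats with more OCT1 were FLJ36000 on chromosome 17, with 38 and 34.7 for DNMT3B and 62 and 55.4 for OCT1, and a repeat in an intron of ADAMTSL1, with 16 and 25.7 for OCT1 and no DNMT3B peak.

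**Figure D5:**
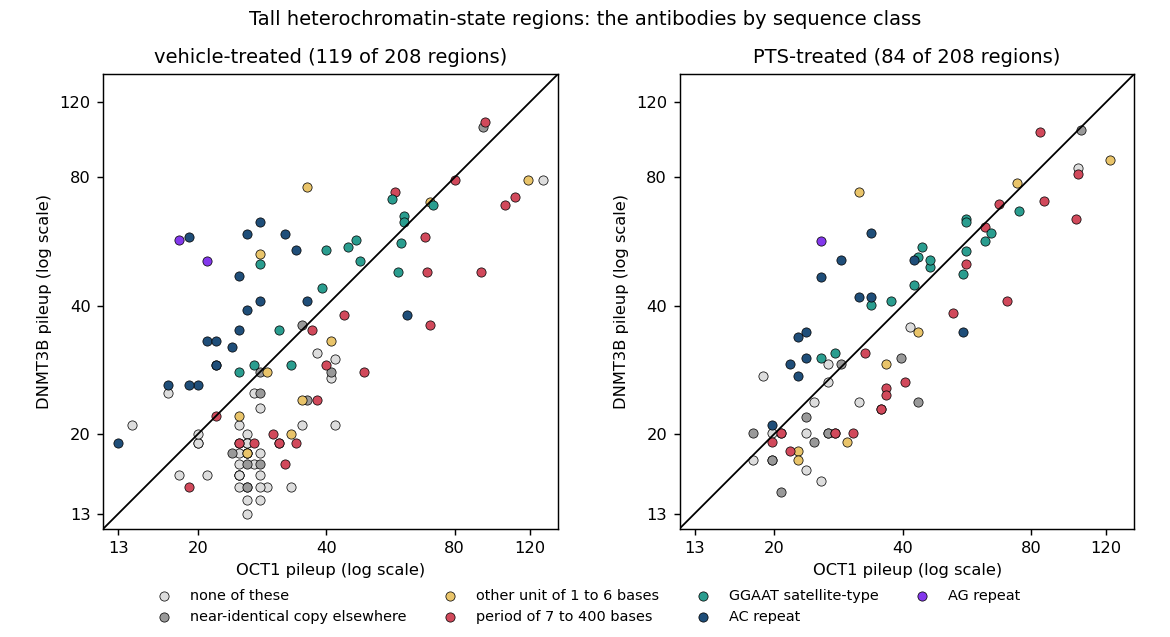
DNMT3B pileup against OCT1 pileup (both on log scales) at tall heterochromatin regions with a peak of both antibodies, with vehicle (119 of 208 regions) and PTS (84 of 208 regions), coloured by sequence class. The line marks equal pileups. AC repeats (blue) lie above it at 19 of 20 sites with vehicle and 12 of 13 with PTS, whereas longer periods (red) mostly lie below it.

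At most repeats with a longer period or of another short unit OCT1 had the higher pileup. The tallest OCT1 member, next to LINC00854 on chromosome 17, was classed by a run of 32 bases of A (or T) outside the bases shown. It had OCT1 pileups of 119 with vehicle and 123 with PTS, and DNMT3B pileups of 79 and 87.7. LOC654342 in the chromosome 2 pericentromere, with the AGCC unit shown above, had 111 and 102 for OCT1 against 72 and 63.9. TP53TG3B on chromosome 16, also with an AGCC unit, had 92 and 70.3 against 48 and 41.1. DIP2C on chromosome 10 had 70 and 52.5 against 36 and 38.4. LINC00523 on chromosome 14, a run of ACTC, went the other way, with 76 and 74 for DNMT3B and 36 and 31.7 for OCT1. Among the tallest members inside genes were also MUC2, a gut mucin gene (OCT1 38 and 36.6), and RPH3AL, a gene of vesicle release (OCT1 44 and 36.6), both with a repeated period in an intron.

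Few regions had a member in all 4 lists, and their median height was the greatest. Of 41330 separate regions, 37760 had a member in 1 list, 2894 in 2, 551 in 3 and 118 in all 4. The median of a region's highest pileup was 15, 17.8, 19.8 and 25 in these groups. Part of this rise is fixed in advance, since a region in more lists has more values to take the highest from. Some tall regions had a member in 1 list only, such as TP53TG3B with 92 for OCT1 with vehicle. That region also had peaks in the other lists, 48 and 41.1 for DNMT3B and 70.3 for OCT1 with PTS. Since a member is set by the first state listed for a peak, these counts do not show that a peak is absent elsewhere. The shortest list, DNMT3B with PTS, also limits the number of regions in all 4. The same counts for peaks in other states are not given here. Chromosome 9 held 36 and chromosome 2 held 23 of the 118. By sequence, 18 were of the GGAAT type, 13 had a near-identical copy, 12 a longer period, 11 were AC repeats and 56 were in none of the classes. Among the tallest, the region at LOC101927237 had DNMT3B pileups of 108 with vehicle and 102 with PTS and OCT1 pileups of 94 and 84.1. EMBP1, next to the chromosome 1 centromere, had 105 and 103 for DNMT3B and 93 and 105 for OCT1. The smallest shift at which its sequence matched itself nearly as well as at its best was 171 bases. This is the length of the alpha satellite unit of human centromeres. Even the best match fell short of the identity required for the class of longer periods. The region was classed by its near-identical copies elsewhere. LINC01262 on chromosome 4, with a period of 34 bases, had 79 and 70.3 for DNMT3B and 80 and 86.1 for OCT1. The treatments differed by less than counting error in each of these 3 regions.

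The GGAAT-type regions formed a cluster. Of the 16 tall ones, 1 lay on chromosome 9 near MAMDC2 and the others lay on chromosome 2, from 89853062 to 90381559, next to the centromere. The lists assign them to MIR4436A, whose nearest distance to the tallest of them is 766992 bases, so the name is only a position. The tallest, whose sequence is shown above, had DNMT3B pileups of 69 with vehicle and 66.7 with PTS, and OCT1 pileups of 71 and 75.2. MAMDC2 had 57 and 63 for DNMT3B and 47 and 56.4 for OCT1. All 16 had both antibodies in both treatments, with a DNMT3B over OCT1 ratio between 0.814 and 1.79 with vehicle and between 0.857 and 1.23 with PTS. Reads from such arrays can be placed at several copies, so a pileup there may count more DNA than the site itself.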

How the data were processed

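ChIP-seq peaks of DNMT3B and OCT1 from MCF10CA1a cells with vehicle or PTS were taken from 4 deposited lists, grouped by the sample labels. After trimming (cutadapt), mapping to GRCh37/hg19 (Burrows-Wheeler Aligner) and removal of duplicates, the authors ran MACS2 on 3 pooled replicates with fragments of 200 bp. By the peak names, no local background was used in these lists. The paper states that pooled inputs served as the background control and that differential peaks were called with bdgdiff. Software versions of the authors are not given in the sources used here. The deposited pileup is a signal in fragments, scaled in the PTS lists by 0.913 (DNMT3B) and 0.990 (OCT1), and division by this factor gave whole reads within 0.00548. The deposited fold is the ratio of pileup plus 1 to the list's background plus 1. The −log10 p-value that the authors deposited follows from the pileup, and 2 further columns, headed as P and Q values, are scores that the authors rescaled. Gene names and HMEC chromatin states are the authors'. Neither inputs nor raw reads were used here.

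Each peak was counted once. Treatments were compared at a pileup of 13 or more, in regions merged from overlapping peaks. Intervals are 95% Wilson intervals for shares and exact binomial intervals of whole reads for ratios, and they cover counting error only. Positions in genes came from GENCODE 44 lifted to GRCh37. GC, motifs, tandem repeats and periods (at least 50% identity) were computed on GRCh37, with flanks of equal length 5 kb to each side, and copies were searched with minimap2 2.31-r1302. The scripts ran under python 3.11.15 with pandas 2.3.3, numpy 2.4.6, pysam 0.24.0, scipy 1.17.1 and numba 0.67.0, were tested on simulated data, and drew the plots in matplotlib 3.10.9.

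The members, gene lists and named genes were chosen with earlier results of these data known. The rule named the 6 highest members of a list and the 6 highest in a gene, the 4 highest and 4 lowest ratios and the 4 highest members without a peak in the other treatment. It added up to 4 members of a gene list and the 6 highest regions in all 4 lists, at most 1 peak per gene. Others are named for their class or stretch after values were seen, and not all that the rule allows are printed. A withheld item is not reported here. Alternatives tried were other definitions of the state, the deposited P-value under 0.05, the windows kept, higher pileups, other overlaps, unscaled reads, a longer minimum for tandem repeats, and leaving out copies, sites within 5 Mb of a centromere gap or the 4 stretches.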

Additional observations from a re-analysis of the deposited data

How the results depend on the processing

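Of 108 values recomputed under alternatives, 52 moved by less than counting error or by under 1.5 times for counts and 56 moved by more. The DNMT3B median ratio crossed 1. With a deposited P-value under 0.05, 104, 79, 210 and 97 members remained in the 4 lists (DNMT3B with vehicle and PTS, OCT1 with vehicle and PTS, the order used throughout). The other definitions of the state and the windows kept left the numbers within 1.5 times. The share of members that recurred in the other treatment was 5.98%, 42.1%, 7.79% and 46.3% with a gap of at most 200 bp allowed, and 4.50%, 33.6%, 4.96% and 31.7% with at least 50% of the shorter peak shared. At a pileup of 15 or more in both it was 6.78% for DNMT3B with vehicle, 7.18% for OCT1 with vehicle and 35.2% for OCT1 with PTS. Over 5 Mb from a centromere gap it was 4.15% and 32.1% for DNMT3B. Leaving out the 4 stretches, an alternative chosen after seeing the data, gave 10.4%, 67.3%, 2.39% and 30.0%, so that DNMT3B recurrence was higher and OCT1 recurrence lower outside them.

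The share of members with both antibodies was 39.5%, 36.2%, 6.12% and 4.94% with a gap of 200 bp, 31.5% and 4.39% in the vehicle lists at a pileup of 15 or more, and 24.4%, 46.1%, 1.80% and 6.98% outside the 4 stretches. Over 5 Mb from a centromere gap it was 27.4%, 4.75% and 3.26% in the DNMT3B list with PTS and the OCT1 lists with vehicle and PTS.

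In whole reads without scaling, the median ratio of PTS over vehicle was 1.12 for DNMT3B, with 16 regions past 1.5-fold higher and 1 lower, and 1.06 for OCT1. At a pileup of 15 or more in both it was 0.982 for DNMT3B, at 20 or more 0.951 and 1.02, and outside the 4 stretches 0.962 and 1.04. The DNMT3B median thus lay above 1 in some settings and under 1 in others. No DNMT3B region was past 1.5-fold higher with PTS at 15 or more, at 20 or more or outside the stretches (0, 0 and 0), and 1 was lower without near-identical copies. For OCT1, 13 higher and 16 lower remained at 15 or more, 2 and 6 at 20 or more, and 10 and 12 outside the stretches. Tandem repeats of at least 48 bases were in 2.06%, 7.04%, 0.125% and 0.380% of all members, against 4.56%, 13.4%, 1.21% and 1.63% at 24 bases. The causes of these shifts were not tested.

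No paired analysis was possible because each list pools its 3 replicates, and for the same reason no replicate could be left out. At pileups of 13 to 20 a region rests on that many fragments over 3 replicates, and a ratio of 1.5 is within counting error there.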

Other observations

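A telomere-type repeat was among the tall DNMT3B members. The member assigned to LOC100288778, near the start of chromosome 12 at chr12:95310-95685, holds a run of 83 bases of the telomere unit. Its DNMT3B pileups were 53 with vehicle and 47.5 with PTS. For OCT1 it had 28 with vehicle and no peak at 13 or more with PTS. A shorter run, of 48 bases, lies near the end of chromosome 1 at PGBD2, where DNMT3B had 21 with vehicle and no other list had a member with such a run. Telomere runs of 24 bases or more were thus in 2 DNMT3B members with vehicle and 1 in each of the DNMT3B list with PTS and the OCT1 list with vehicle.

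The CENP-B box, which the centromere protein CENP-B binds in alpha satellite DNA, was rare among members on either strand. It was in 3 DNMT3B members with vehicle, 2 with PTS, 11 OCT1 members with vehicle and 2 with PTS. Peaks in other states held it in 90, 88, 116 and 91 cases, or 1.35%, 4.4%, 0.297% and 1.36%. The members with PTS that held it were EMBP1 and LOC101927237 in both lists, the latter with 3 boxes.

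In control lists of genes, housekeeping genes had a member in 3 of 10, 1 of 3, 32 of 72 and 6 of 13 of those with a peak, and mammary epithelial genes in 1 of 3, 1 of 1, 11 of 15 and 2 of 4. None of these members reached 25. TP63, a transcription factor of basal epithelium, had members in all 4 lists, at 16 and 14.6 for DNMT3B and 17 and 17.8 for OCT1 at their highest, each at another place of the gene or its surroundings.

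Among runs of another short unit, the commonest in OCT1 members with vehicle was A, in 84 of 313, with a median pileup of 16. Next came 3 other units rich in A, with 45, 36 and 35. Their medians lay between 15 and 16, so most such runs were low.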
